A study of Homo sapiens with 4 samples.

Results

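In LNCaP cells, 1396 of the 20955 peaks listed for the transcription factor TCF7L2 were strong, lay away from protein-coding promoters and shared no base with a listed peak of H3K27Ac, the acetyl mark of active enhancers and promoters. Strong means a height of at least 100 tags, the height being the pileup of sequenced fragments that the authors' peak caller gave. Distal means that the peak touched no window from 1000 bp before to 100 bp after a protein-coding transcript start of the hg19 build. H3K27Ac was taken from 2 lists, one after dihydrotestosterone (DHT) and one after vehicle, and 1 shared base with either list removed a peak. The remaining regions are called outside peaks here. Of 2049 strong peaks, 125 touched a promoter window and 1924 were distal, and the 528 distal peaks that shared bases with H3K27Ac (inside peaks) are the set they are compared with, together with 11619 distal peaks outside H3K27Ac under 100 tags (weaker outside peaks). Height and H3K27Ac overlap chose these sets: the outside peaks were chosen by both, so both are described without a test.

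LNCaP is a human line of prostate cancer cells that respond to androgen and have a luminal character. TCF7L2 was profiled in cells at passage 15 in 10% fetal bovine serum that was not charcoal-stripped, according to the labels. The paper's methods give a lower percentage of serum for these cells, which cannot be settled here. H3K27Ac was profiled in cells at passage 20 in charcoal-stripped serum, which is depleted of steroid hormones, after 10 nM DHT for 4 h or after vehicle. The transcription factor and the mark therefore come from cultures that differed in serum and passage, which cannot be told apart from a difference between factor and mark. Each condition had 1 library, so culture-to-culture spread is unknown, no p-value is given, and every interval below is a 95% interval that covers counting error over peaks only. Peaks of 1 library are not replicates, and neighboring peaks can share a source. The lists held 20955 TCF7L2 peaks of 15 to 229 tags, 60752 H3K27Ac peaks of 10 to 213 tags after DHT and 57623 of 9 to 212 tags after vehicle, and the number of reads behind them is unknown here.

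TCF7L2 belongs to the TCF/LEF family of HMG-box proteins, which carry Wnt signals to DNA. Without a signal these proteins hold corepressors of the Groucho/TLE family at their sites, and with a signal they bind beta-catenin and activate transcription. The family recognizes CTTTGAT and close variants of it, and in epithelial cells its binding has often been found beside sites of AP-1, the dimers of Jun and Fos proteins that recognize TGACTCA. H3K27Ac is laid down by histone acetyltransferases and is commonly used to tell active from inactive enhancers.

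The sequences of 6 regions show what the centers of the tallest outside peaks look like. Each line gives the central 200 bp of a peak on the plus strand of GRCh37 (hg19), with capitals for CTTTG followed by 2 bases that are each an adenine or a thymine, on either strand (the loose TCF form) and for TGACTCA on either strand (the AP-1 form). The first lies at chr10:114279080-114279279 in an intron of VTI1A, nearest to the start of ZDHHC6, and holds both forms. The TGIF1 region is chr18:3618215-3618414 in an intron of DLGAP1, 163 kb from the start of TGIF1, and it holds 3 loose TCF forms. The AXIN2 region is chr17:63553280-63553479 in an intron of AXIN2 and holds 1. The KITLG region, chr12:89328275-89328474 between genes and 354 kb from the start of KITLG, holds 1 form of each kind. The FAT1 region, chr4:187766585-187766784 between genes, holds only the AP-1 form. The PCDH7 region, chr4:30791000-30791199 in an intron of PCDH7, has 227 tags and holds neither.
ZDHHC6: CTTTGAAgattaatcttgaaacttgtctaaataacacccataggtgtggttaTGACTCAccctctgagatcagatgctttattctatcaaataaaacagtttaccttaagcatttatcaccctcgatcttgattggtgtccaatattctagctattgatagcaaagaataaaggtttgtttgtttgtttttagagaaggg
TGIF1: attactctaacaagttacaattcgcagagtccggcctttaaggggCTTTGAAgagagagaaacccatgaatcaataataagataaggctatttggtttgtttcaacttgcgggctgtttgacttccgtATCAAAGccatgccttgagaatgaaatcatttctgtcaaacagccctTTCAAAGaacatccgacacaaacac
AXIN2: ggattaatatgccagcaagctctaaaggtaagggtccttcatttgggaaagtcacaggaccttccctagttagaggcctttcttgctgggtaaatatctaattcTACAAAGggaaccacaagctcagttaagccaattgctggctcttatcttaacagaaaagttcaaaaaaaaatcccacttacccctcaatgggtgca
KITLG: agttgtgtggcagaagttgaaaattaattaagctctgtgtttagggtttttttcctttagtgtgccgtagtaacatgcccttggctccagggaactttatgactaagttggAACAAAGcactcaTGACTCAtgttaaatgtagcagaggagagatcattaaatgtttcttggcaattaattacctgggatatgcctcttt
FAT1: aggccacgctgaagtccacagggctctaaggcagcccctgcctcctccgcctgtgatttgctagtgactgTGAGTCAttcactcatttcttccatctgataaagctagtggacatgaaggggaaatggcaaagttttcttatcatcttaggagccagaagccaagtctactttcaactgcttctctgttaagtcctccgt
PCDH7: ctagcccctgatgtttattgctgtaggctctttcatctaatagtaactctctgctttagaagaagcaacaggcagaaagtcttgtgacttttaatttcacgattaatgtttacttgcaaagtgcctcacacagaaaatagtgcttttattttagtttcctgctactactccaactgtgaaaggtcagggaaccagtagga

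The heights of the outside peaks, which the limit of 100 tags fixed in part, had a median of 139 tags, an upper quartile of 169 tags and a maximum of 229 tags, which is also the maximum of the whole list. Inside peaks had a median of 135 tags and weaker outside peaks, which were chosen to be lower, a median of 30 tags. Of the 100 tallest TCF7L2 peaks, which all passed that limit, 79 were outside peaks, 18 were inside peaks and 3 touched a promoter window. Among all 2049 strong peaks these numbers were 1396, 528 and 125, and no preference of the tallest peaks is read from the counts. Outside and inside peaks each had a median width of 659 bp. The share of distal peaks outside H3K27Ac was slightly lower among strong than among weaker peaks. It was 72.6% (70.5 to 74.5) over all strong distal peaks and 75.4% (74.7 to 76.1) over all weaker ones. By height it was 75.8% (74.6 to 76.9) of 5188 distal peaks of 15 to 24 tags, 76.1% (75.1 to 77.1) at 25 to 49 tags, 73.5% (72.0 to 74.9) at 50 to 99 tags, 70.8% (67.3 to 74.1) at 100 to 124 tags and 73.3% (66.7 to 79.0) at 200 to 229 tags. Strong promoter peaks differed, as 49 of 125 (39.2%, 31.1 to 48.0) were outside H3K27Ac.

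**Figure D1:**
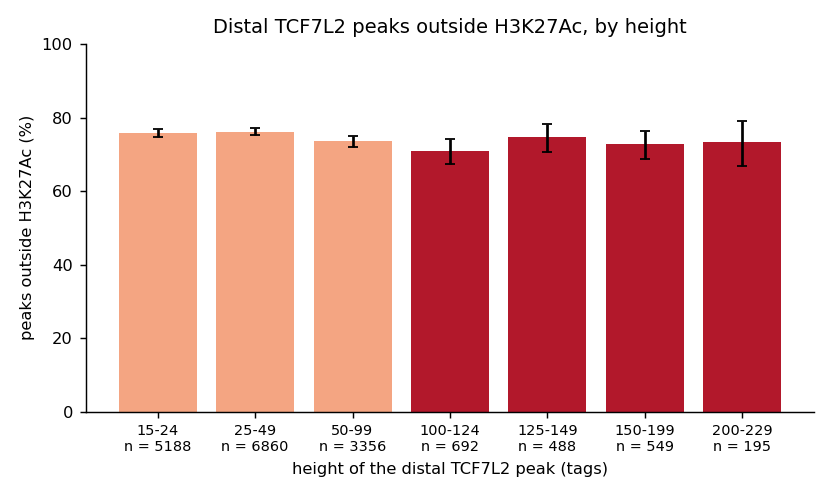
Share of distal TCF7L2 peaks that shared no base with either H3K27Ac list (y axis, %), in 7 classes of TCF7L2 height (x axis, tags). Dark bars are the classes of 100 tags or more and light bars those below, lines are 95% Wilson intervals, and every class lies between 70.8% and 76.1%.

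The TCF motif stood at the centers of the outside peaks more often than at their sides. CTTTGAT was present within 100 bp of the center in 302 of 1396 outside peaks (21.6%, 19.6 to 23.9), against 3.19% of windows of the same length 1 kb to either side. The same motif was present in 13.2% of all 20955 TCF7L2 peaks. The loose TCF form was present in 669 outside peaks (47.9%, 45.3 to 50.5), against 16.6% at the sides and 34.9% of all TCF7L2 peaks. A reordered word of the same letters, GTATTCT, was present in 1.79% of outside peaks and 1.93% of the side windows. The density of CTTTGAT was 1.49 sites per kb in the central 20 bp on each side and 0.161 sites per kb at 480 to 500 bp. Taken over the whole peak, 491 outside peaks (35.2%) held CTTTGAT and 1037 (74.3%) held the loose form, 531 of them with at least 2 copies.

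The TCF motif was compared by H3K27Ac and by height. CTTTGAT was present in 21.6% of outside peaks and 18% of inside peaks, a difference of 3.64 percentage points whose interval of -0.434 to 7.42 includes 0. This depended on the limits: the difference was 4.84 points (1.57 to 7.88) at 80 tags or more and 0.80 points (-4.28 to 5.46) at 120 tags or more. Weaker distal peaks showed a difference of the same size with a narrower interval, 14.7% outside and 11.0% inside H3K27Ac (3.73 points, 2.51 to 4.89). The strong set itself held more of the motif than the weak set, with 21.6% of outside peaks against 14.7% of weaker outside peaks (6.92 points, 4.73 to 9.24). Within the outside peaks the share was 22.4% at 100 to 124 tags and 25.2% at 200 to 229 tags, with overlapping intervals of 19.0 to 26.3 and 18.8 to 32.9. The 326 CTTTGAT sites of outside peaks were followed by G in 37.7% and by C in 33.1%, the next base was T in 47.5%, and the base before the motif was C in 35.9%.

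AP-1 was the other motif of these centers. TGACTCA was present within 100 bp of the center in 566 outside peaks (40.5%, 38.0 to 43.1), against 4.12% of the side windows and 34.7% of all TCF7L2 peaks. Its reordered word ATCAGTC was present in 1.65% of outside peaks. Inside peaks held TGACTCA in 39.4% (35.3 to 43.6), so outside and inside peaks differed by 1.15 points with an interval of -3.79 to 5.98. Among weaker distal peaks 42.6% outside H3K27Ac and 32.7% inside it held the motif, a difference of 9.83 points (8.07 to 11.6). Within the outside peaks the AP-1 share was 43.7% (39.3 to 48.1) at 100 to 124 tags, 36.1% (31.5 to 40.9) at 150 to 199 tags and 35.7% (28.3 to 43.8) at 200 to 229 tags, so the tallest outside peaks held the motif no more often than the lowest.

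The AP-1 form was about as frequent in outside peaks with a TCF form as in those without one. In the central 200 bp, 265 outside peaks held both forms, 404 only the loose TCF form, 301 only the AP-1 form and 426 neither. The AP-1 share was 39.6% among outside peaks with the loose TCF form and 41.4% among those without it, a difference of -1.79 points (-6.92 to 3.36). In the 265 peaks with both, the nearest pair was a median of 40 bp apart (quartiles 20 and 76 bp), and 30 pairs were 10 bp or less apart. Over the whole peak, 638 outside peaks held both forms and 119 held neither. The 229-tag peak in VTI1A and the 224-tag peak 354 kb from the start of KITLG, both printed above, are examples with both forms.

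**Figure D2:**
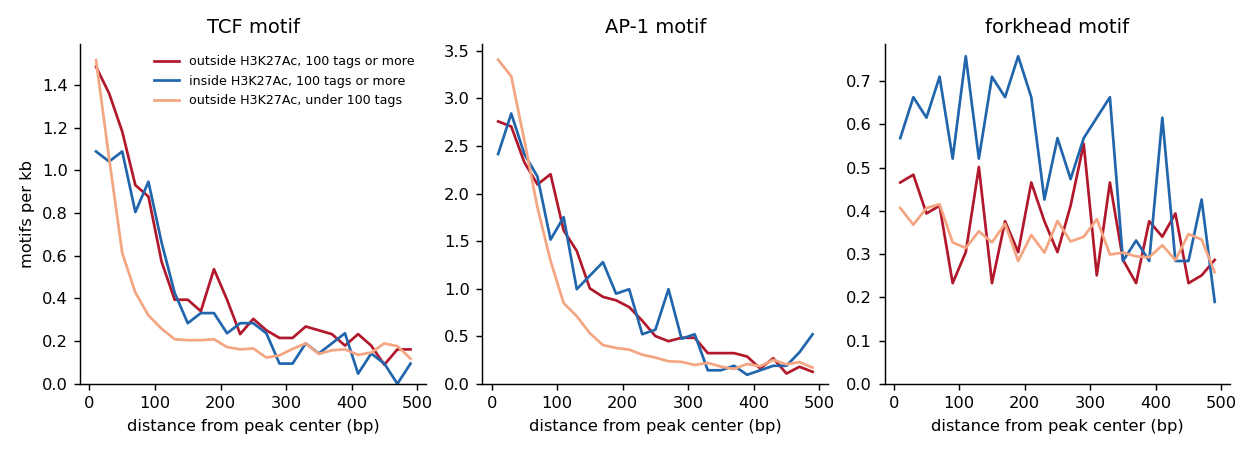
Sites per kb (y axis) by distance from the peak center in bins of 20 bp on each side (x axis, bp) for CTTTGAT (left), TGACTCA (middle) and the forkhead form TGTTTAC or TGTTTGC (right), in outside, inside and weaker outside peaks, with a separate y axis for each motif. TCF and AP-1 sites are densest at the center in all 3 sets, and in the outside peaks CTTTGAT reaches 1.49 and TGACTCA 2.76 sites per kb there.

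The forkhead form differed less from its surroundings. Forkhead proteins such as FOXA1 open chromatin at enhancers of luminal prostate cells and recognize TGTTTAC and TGTTTGC. Either word was present near the center in 103 outside peaks (7.38%, 6.12 to 8.87), close to the 6.27% of their side windows and the 7.66% of all TCF7L2 peaks. Inside peaks held it in 11.0% (8.59 to 13.9), so outside peaks were lower by 3.61 points, with a difference of -3.61 and an interval of -6.82 to -0.789. The interval included 0 at 120 tags or more (-1.76 points, -5.56 to 1.44), within 50 bp of the center (-1.98 points, -4.52 to 0.115) and with no H3K27Ac peak allowed within 1000 bp (-2.63 points, -5.59 to 0.0266). Weaker distal peaks held it in 7.13% outside and 11.9% inside H3K27Ac, a difference of -4.73 points (-5.89 to -3.63). Over the whole peak the forkhead form was present in 319 outside peaks (22.9%, 20.7 to 25.1) and in 186 inside peaks (35.2%, 31.3 to 39.4), at 0.386 and 0.597 sites per kb. For TGTTTAC alone near the center, the difference was -1.64 points with an interval of -4.17 to 0.432, which includes 0.

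Other motifs varied in how far they stood above their surroundings. GGAATG, the core word of the TEAD factors, was present in 18.1% of outside peaks, 10.7% of their side windows and 16.7% of inside peaks. TGTGGTT, the word of the RUNX factors, was present in 8.67% of outside peaks, 3.33% of their side windows and 6.44% of inside peaks. Both exceeded their side windows in the outside peaks, TEAD by a factor of 1.69 and RUNX by 2.60, against 1.18 for the forkhead form. AGATAA, a word of the GATA factors, was present in 16.5% of outside peaks and 14.5% of the side windows, and AGAACA, a word within the element read by the androgen receptor, in 17.8% and 15.3%. The core motif of CTCF, the factor that anchors chromatin loops, was present in 3 outside peaks (0.215%), against 1.21% of all TCF7L2 peaks, and the difference from inside peaks was -0.164 points (-1.17 to 0.334). The CpG count of the central 200 bp had a median of 2 in outside and in inside peaks, and GC content had a median of 44.5% in outside peaks and 45.0% in inside peaks.

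**Figure D3:**
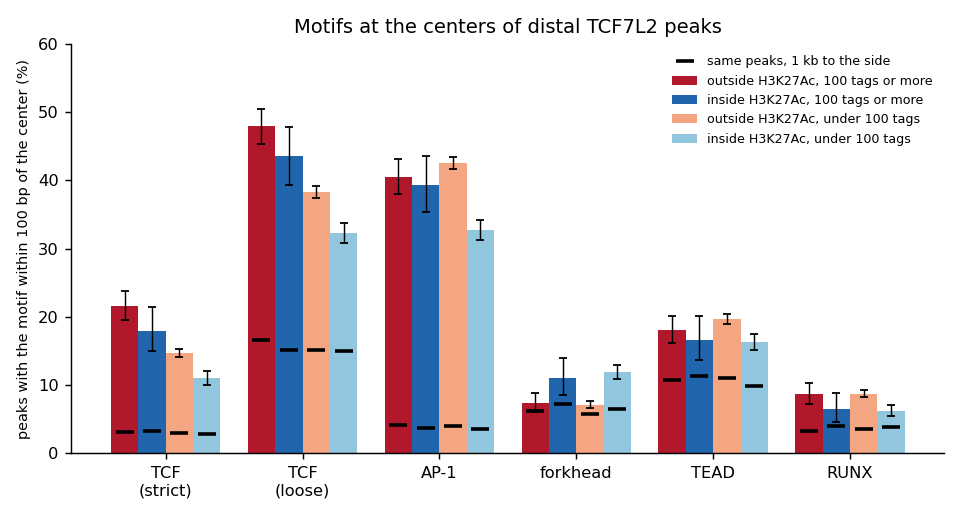
Share of peaks with each motif within 100 bp of the center (y axis, %) in outside, inside, weaker outside and weaker inside peaks (bars, with 95% Wilson intervals), and in windows of the same length 1 kb to the side (short black lines). CTTTGAT is the strict TCF form, AP-1 reaches 40.5% in outside peaks against 4.12% at their sides, and the forkhead share is lower outside H3K27Ac at both heights.

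Outside peaks lay farther from protein-coding starts than inside peaks did, but the H3K27Ac rule that split these sets bears on this. H3K27Ac lay over a promoter window of 56.4% of protein-coding genes, so the rule can place peaks near starts among the inside peaks. No difference from inside peaks in this paragraph is therefore read as a trait of outside peaks. The median distance of outside peaks to the nearest protein-coding start was 49.6 kb (44.5 to 55.1). It was 30.6 kb (24.9 to 35.3) for inside peaks and 36.1 kb (34.9 to 37.3) for weaker outside peaks. More than 100 kb separated 432 outside peaks (30.9%) from every protein-coding start, against 22.7% of inside peaks, a difference of 8.22 points (3.77 to 12.4). The share was 24.4% for weaker outside peaks. The center fell within a protein-coding gene in 665 outside peaks (47.6%, 45.0 to 50.3) and 300 inside peaks (56.8%), a difference of -9.18 points (-14.1 to -4.18). For weaker outside peaks the share was 50.6%. Most of the genic centers were intronic, with 621 in introns and 44 in exons. A further 263 outside peaks (18.8%) lay within non-coding genes only and 468 (33.5%) lay between annotated genes. Between genes lay 27.5% of inside peaks and 33.0% of weaker outside peaks, so that share is not particular to the strong set. Counting starts of all annotated transcripts, the median distance was 11.6 kb, and 85 outside peaks touched the start window of a transcript that is not protein-coding.

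**Figure D4:**
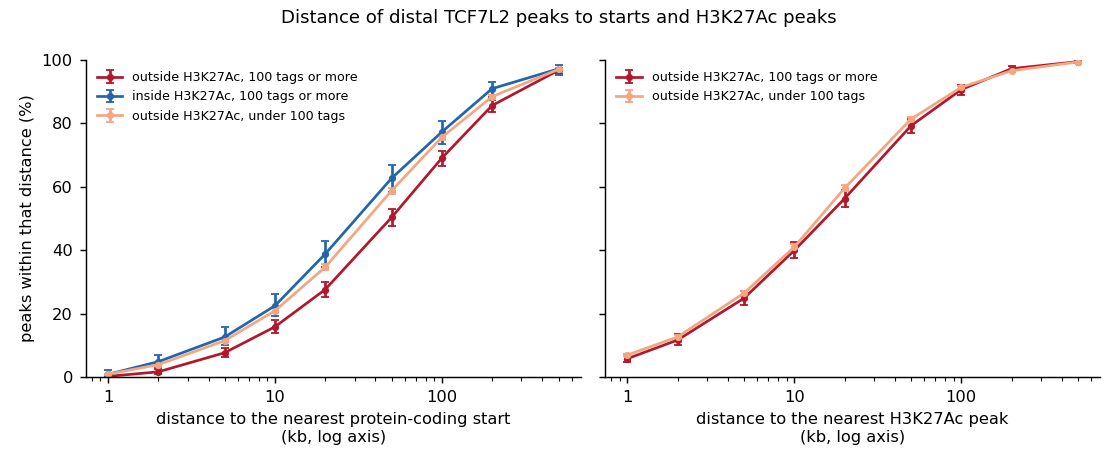
Share of peaks (y axis, %) whose center lies within a given distance of a protein-coding start (left) or whose edge lies within a given distance of an H3K27Ac peak of either list (right), on log axes in kb, with 95% Wilson intervals. Within 50 kb of a protein-coding start lay 50.4% of outside peaks, 62.7% of inside peaks and 58.8% of weaker outside peaks. The H3K27Ac rule that chose inside peaks bears on their distances. The gap curves of outside and weaker outside peaks run close together.

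The genes nearest to outside peaks were acetylated at their promoters about as often as any gene. A promoter window carried a DHT H3K27Ac peak in 55.6% of 19794 protein-coding genes, a vehicle peak in 54.4% and a peak of either list in 56.4%. For the nearest gene of the outside peaks the shares were 56.3% after DHT, 53.7% after vehicle and 56.9% (54.3 to 59.5) for either, with a gene counted once for each peak it is nearest to. For inside peaks the share for either list was 75% (71.1 to 78.5). Inside peaks were chosen for overlapping the same H3K27Ac lists, and 1 H3K27Ac peak can reach both an inside peak and a promoter window, so nothing is read from that share. Weaker outside peaks had 56.4%.

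Outside peaks ranged from the very edge of an H3K27Ac peak to far from any. The gap to the nearest H3K27Ac peak of either list had a median of 15.2 kb (13.6 to 16.7), with quartiles at 5.01 and 41.0 kb, and was at most 30 bp in 4 outside peaks, at most 500 bp in 41 and more than 100 kb in 131. The median gap was 16.7 kb to the DHT list and 18.8 kb to the vehicle list. An H3K27Ac peak within 50 kb was listed for 1073 outside peaks after DHT (76.9%, 74.6 to 79.0) and for 1042 after vehicle (74.6%, 72.3 to 76.9). Within 10 kb, 453 outside peaks had a peak in both lists, 68 only in the DHT list, 37 only in the vehicle list and 838 in neither. The DHT list is also the longer one, and no direction is read from these counts. The nearest H3K27Ac peaks within 50 kb had a median of 23 tags after DHT and 21.5 tags after vehicle, close to the medians of the whole lists, which were 23 tags for DHT and 22 tags for vehicle. The 4 outside peaks with the smallest gap, 0.001 kb each, were nearest to the starts of ZFP36L1 (180 tags), ID1 (118 tags), GDNF (181 tags) and ATXN7L1 (175 tags).

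Outside peaks tended to stand among other TCF7L2 peaks. Another TCF7L2 peak of any height lay within 10 kb of 948 outside peaks (67.9%, 65.4 to 70.3), close to the 70.1% of inside peaks and above the 44.9% of weaker outside peaks. Joined over distances of up to 50 kb, the 1396 outside peaks formed 1047 groups, of which 845 were single peaks, 127 were pairs and 75 held 3 or more. The most numerous group held 11 outside peaks of 102 to 217 tags over 144 kb of chromosome 12 (76017330 to 76160939), nearest to the start of KRR1. Next came 8 peaks of 104 to 219 tags over 66.1 kb of chromosome 7, nearest to the start of KLF14. Groups of 7 peaks each were nearest to the starts of TRIB1 (chromosome 8) and BLID (chromosome 11) or lay in PHLDB2 (chromosome 3). Together 551 outside peaks (39.5%) stood in a group of at least 2.

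The tallest outside peaks were mostly intronic or far from genes. The 229-tag peaks lay in VTI1A, 71.8 kb from the start of ZDHHC6 (a palmitoyltransferase), and 119 kb from that of FAT1 (an atypical cadherin). Peaks of 228 tags were nearest to SERP2, TMEM67 and TRIB1, at 67.1, 52.0 and 247 kb. Next were the 227-tag peaks in PCDH7 (a protocadherin) and in IGF2BP3 (an RNA-binding protein) and 226-tag peaks in VTI1A and in CDKAL1. Of these 9 peaks the one in IGF2BP3, 2.12 kb from a start of that gene, was the only one within 50 kb of a protein-coding start. Their gaps to H3K27Ac ranged from 2.34 kb (SERP2) to 60.5 kb (the 226-tag peak in VTI1A) after DHT, and the H3K27Ac peaks nearest to them had 11 to 64 tags after DHT and 9 to 41 tags after vehicle.

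Of 19794 protein-coding genes, 1207 (6.10%) had an outside peak within 50 kb of the gene body, and 649 (3.28%) had an inside peak. The genes of the Wnt pathway were looked at by role. Of 22 listed Wnt targets, 7 (31.8%, 16.4 to 52.7) had an outside peak within 50 kb and 4 had an inside peak. AXIN2, a scaffold of the complex that degrades beta-catenin, had 4 outside peaks of 195, 218, 225 and 124 tags, the 225-tag one within the gene. RNF43 and ZNRF3 are membrane ubiquitin ligases that remove Frizzled receptors from the cell surface. RNF43 had 1 outside peak of 224 tags within the gene, and ZNRF3 had 3 of 187, 165 and 146 tags within the gene. RNF43 and ZNRF3 also had 2 inside peaks each, so TCF7L2 stood on both sides of the H3K27Ac limit at these genes. The Wnt targets MYC and SOX9 had 1 and 2 inside peaks and no outside peak. The tallest TCF7L2 peaks within 50 kb of the Wnt targets CCND1 and TCF7 had 99 and 91 tags, under the height limit. DKK1, a secreted inhibitor of the Wnt coreceptors, had 1 outside peak of 174 tags 0.828 kb from the gene. NOTUM, a secreted enzyme that removes the lipid of Wnt proteins, had peaks of 139 and 150 tags. NKD2, an inhibitor that acts on Dishevelled, had 1 of 109 tags, and BMP4, a ligand of the BMP pathway, had 1 of 106 tags. NKD1 and APCDD1, inhibitors of the pathway on the same list, had no outside peak, and their tallest TCF7L2 peaks within 50 kb had 51 and 24 tags.

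H3K27Ac around these 7 genes was uneven. The promoters of AXIN2, RNF43 and ZNRF3 carried an H3K27Ac peak after DHT and after vehicle, and those of DKK1, NOTUM, NKD2 and BMP4 carried none. The tallest H3K27Ac peak within 50 kb was 41 tags after DHT and 35 tags after vehicle at AXIN2, and 19 tags after DHT at DKK1, where the vehicle list held no peak. At NKD2 neither list held a peak within 50 kb. Of the 4 outside peaks at AXIN2, 3 held the loose TCF form somewhere in the peak, and the one of 195 tags held neither a TCF nor an AP-1 form.

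Other genes of the Wnt pathway were near the level of all genes. Of 33 Wnt ligands and receptors, 2 had an outside peak within 50 kb, WNT16 with 3 of up to 200 tags and WNT3 with 1 of 125 tags. Of 17 genes for TCF, LEF and the beta-catenin machinery, 1 had one, TCF7L2 itself with a 126-tag peak within the gene, whereas 5 had an inside peak. Here the inside peaks were near more of the listed genes than the outside peaks were.

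Markers of basal epithelium had outside peaks nearby more often than markers of luminal epithelium, the type LNCaP is assigned to, in 2 short lists. Of 10 basal markers, 6 (60%, 31.3 to 83.2) had an outside peak within 50 kb and 0 had an inside peak, whereas of 15 luminal markers 2 (13.3%, 3.74 to 37.9) had an outside peak and 1 had an inside peak. The intervals of the outside shares overlap between 31.3% and 37.9%. DST, a linker between the cytoskeleton and hemidesmosomes, had 3 outside peaks of 208, 104 and 210 tags within the gene. ITGB4, the integrin subunit of hemidesmosomes, had 2 of 111 and 195 tags, and TP63, the transcription factor that defines basal cells, had 1 of 162 tags 40.1 kb from the gene. COL17A1 had 1 of 140 tags, ITGA6 1 of 132 tags and KRT5, the basal keratin, 1 of 128 tags. The other basal markers, KRT14, KRT15, LAMB3 and NGFR, had no outside peak. The tallest TCF7L2 peaks within 50 kb of KRT14, KRT15 and LAMB3 had 19, 36 and 31 tags, and NGFR had no TCF7L2 peak there. A shorter list held TP63, KRT5, KRT14, KRT15 and LAMB3 as basal markers, of which only TP63 and KRT5 had an outside peak. The luminal count rests on a single 134-tag peak within KRT8 that is also within 50 kb of KRT18. The listed genes are few, and the lists were chosen with earlier results of these data known, so the contrast is a description only. The median gene length was 37 kb for basal markers and 22.7 kb for luminal markers, against 27 kb for all genes.

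Promoter H3K27Ac was listed for more luminal than basal markers. Of the 15 luminal markers, 15 carried promoter H3K27Ac after DHT and 14 after vehicle. The tallest TCF7L2 peak within 50 kb differed widely among them: it had 134 tags at KRT8 and KRT18, 109 tags at EPCAM (an inside peak), 86 tags at ACP3, 61 tags at CDH1 and 55 tags at SLC45A3, and at the other 9, FOXA1, HOXB13, SPDEF and FOLH1 among them, there was none above 26 tags. Of the 10 basal markers, 3 carried promoter H3K27Ac after DHT and 3 after vehicle, DST and ITGA6 among them. KRT5 had no H3K27Ac peak within 50 kb in either list. At the other basal markers with an outside peak, the tallest H3K27Ac peaks within 50 kb after DHT had 131 tags (ITGB4), 63 (COL17A1), 61 (DST), 48 (ITGA6) and 13 (TP63). After vehicle they had 128, 49, 51, 46 and 16 tags. Binding near markers is not their expression, and the identity of the cells behind the TCF7L2 library was not tested beyond its label, which bears on every TCF7L2 value here. In the marker lists of other cell types, 1 of 8 stroma genes (ACTA2, 149 tags), 1 of 12 colon epithelium genes (KRT20, 2 peaks) and 0 of 6 leukocyte, 0 of 8 luminal breast, 0 of 8 liver and 0 of 8 pancreatic duct genes had an outside peak within 50 kb, against 6.10% of all genes.

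**Figure D5:**
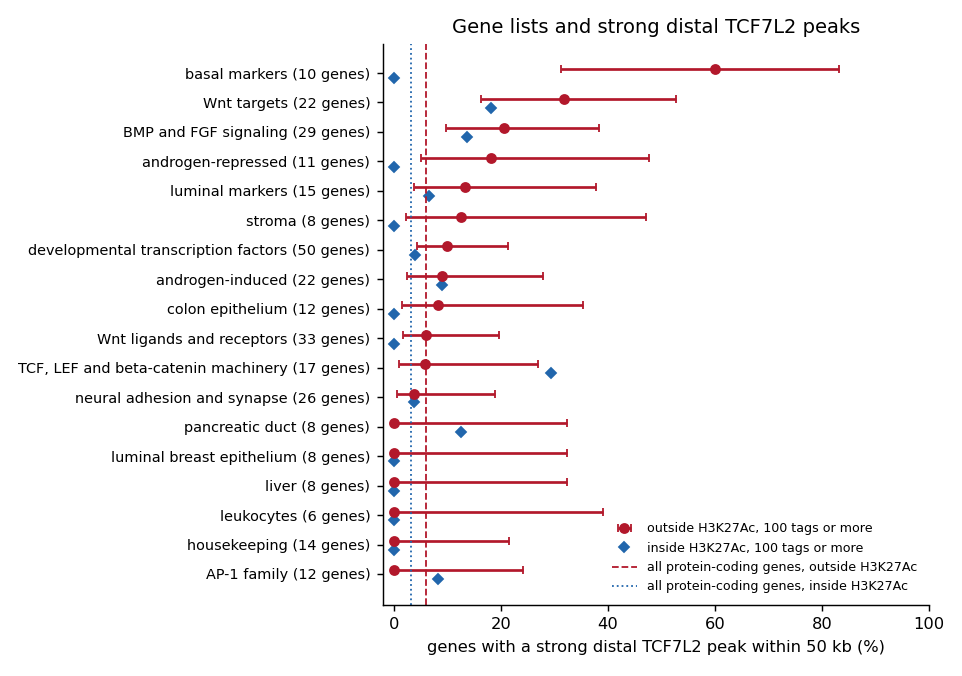
Share of the genes of each list with a strong distal TCF7L2 peak within 50 kb (x axis, %), circles with 95% Wilson intervals for outside peaks and diamonds for inside peaks, with vertical lines at the shares of all protein-coding genes (6.10% for outside and 3.28% for inside peaks). Basal markers reach 60% and Wnt targets 31.8% for outside peaks, and the genes for TCF, LEF and the beta-catenin machinery are the list with the highest share for inside peaks. The lists were chosen with earlier results of these data known.

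Among other signaling genes, 6 of 29 BMP and FGF genes (20.7%, 9.85 to 38.4) had an outside peak within 50 kb, against 6.10% of all genes. An inside peak was within 50 kb of 4 of the 29 (13.8%), against 3.28% of all genes. Both shares were above those of all genes, so this is not particular to outside peaks. SMAD7, an inhibitor of TGF-beta signaling, had outside peaks of 129 and 180 tags within the gene, and also 2 inside peaks within 50 kb. The 180-tag peak held 2 CTTTGAT near its center. ID1, a target of BMP signaling that blocks basic helix-loop-helix factors, had peaks of 118 and 178 tags 0.382 and 1.58 kb from the gene. FGF20 had 1 of 169 tags and ID2 1 of 139 tags, and BMP4 and BMP7 were the others. Of 50 developmental transcription factors, 5 (10%, 4.35 to 21.4) had an outside peak, an interval that includes the 6.10% of all genes, among them RUNX1 with 8 of up to 195 tags and RUNX2 with 3 of up to 173 tags. None of the 12 genes of the AP-1 family and none of the 14 housekeeping genes had one, but in lists this short 6.10% is also less than 1 gene.

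Androgen-regulated genes had outside peaks nearby in shares whose wide intervals include the 6.10% of all genes. Of 22 genes induced by androgen, 2 (9.09%, 2.53 to 27.8) had an outside peak within 50 kb, PMEPA1 with 1 of 133 tags and ABCC4 with 1 of 132 tags, both within the gene. At PMEPA1 the tallest H3K27Ac peak within 50 kb was 149 tags after DHT and 58 tags after vehicle, and at ABCC4 149 tags after DHT and 112 tags after vehicle. Of 11 genes repressed by androgen, 2 (18.2%, 5.14 to 47.7) had one, MET, the receptor of hepatocyte growth factor, with 6 of up to 194 tags and DDC with 1 of 181 tags. The MET promoter carried no H3K27Ac peak in either list.

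The genes with the most outside peaks were long ones. RAD51B, a gene of recombinational repair that spans 910 kb, had 14 outside peaks of 109 to 215 tags among its 74 TCF7L2 peaks. PCDH7 had 11 of 114 to 227 tags, all within the gene. VTI1A had 8 of 120 to 229 tags, RUNX1 8 of 110 to 195 tags and PHLDB2 8 of 104 to 179 tags. PDE4B and ZBTB20 had 7 each, and CDKAL1, MPP7 and NSMCE2 had 6 each, as did MET, which is shorter at 126 kb. Shorter genes with at least 5 included F2RL1, a protease-activated receptor, whose 5 outside peaks of 102 to 206 tags all lay outside its 16.4 kb body. Another was TGFBR2, the type 2 receptor of TGF-beta, with 5 of 107 to 169 tags. HMGA2, an architectural chromatin protein, had 5 of 105 to 144 tags within the gene and no H3K27Ac peak of either list within 50 kb. The smallest gap from any of these 5 peaks to H3K27Ac was 181 kb. F2RL1, TGFBR2 and HMGA2 were picked after their values were seen.

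Few peaks stood right at the height limit. Outside H3K27Ac and away from promoters there were 21 peaks of 98 tags and 23 of 99 tags just under the limit, and 31 of 100 tags and 19 with 1 tag more just inside it. Their median widths were 509 and 539 bp under the limit and 539 bp at both heights inside it. CTTTGAT was present near the center in 19.0% and 8.70% of those of 98 and 99 tags and in 16.1% of those of 100 tags and 36.8% of those with 1 tag more. TGACTCA was present in 52.4% and 43.5% under the limit and in 38.7% and 42.1% inside it. With 19 to 31 peaks at each height, no step or trend is read from these shares.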

How the data were processed

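The data were ChIP-seq libraries of LNCaP cells, 1 each for TCF7L2, H3K27Ac after DHT and H3K27Ac after vehicle. An input library was not analysed here. Reads were mapped to hg19 by the authors, with Bowtie 2 for H3K27Ac and ELAND for TCF7L2 by the paper's methods, while the submitters' processing notes name CASAVA 1.8.2, Bowtie2 and BWA, and peaks were called with Sole-search for each library. The deposited value of each peak is a signal, the pileup height in whole tags, and scaling to depth is not stated in the sources used here. No summit is given, so the center is the midpoint of the listed start and end.

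Peaks were overlapped (at least 1 bp) with GENCODE 44 mapped to GRCh37, and motifs were searched on both strands of GRCh37, where CTTTGAT also counts as a loose TCF form. Genes were named by rule: the nearest to the 10 tallest peaks, the 10 with most outside peaks within 50 kb, and up to 4 for each gene list, beside others chosen after their values were seen. A gene that this rule names is not reported here. The peaks and gene lists were chosen with earlier results of these data known. All 298 listed symbols matched, 4 through older symbols of the RefSeq table. Shares have Wilson, differences Newcombe and medians order-statistic 95% intervals, for counting error only. Of the 1396 outside peaks, 26 had under 90% of their 32-base words at 1 place in the genome. Overlap, motif and word counting were tested on simulated data. Alternatives covered the height limit, promoter window, transcripts, H3K27Ac margin and list length, chromosomes, repeated sequence, motif window and gene and peak distances. Tools were bedtools 2.31.1, samtools 1.23.1, pyfaidx 0.9.0.4, scipy 1.17.1, matplotlib 3.10.9, pandas 2.3.3 and numpy 2.4.6 under Python 3.11.15.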

Additional observations from a re-analysis of the deposited data

How the results depend on the processing

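With 1 library per condition, no replicate could be left out, and no result has a test. No paired analysis was possible because each condition has 1 library, so the groups share fewer than 2 replicate numbers. Of 153 values recomputed under the alternatives, 132 stayed within the main 95% interval (counts within 1.5 times the main count), 21 moved beyond it and 0 changed the sign of a difference whose interval excludes 0. Only the forkhead difference had such an interval, so that 0 says nothing about the others. The AP-1 difference of 1.15 points was -0.37 with starts of all transcripts, -1.61 within 50 bp and -1.88 anywhere in the peak, and stayed positive otherwise. The CTCF difference of -0.164 points also changed sign in some settings, to 0.202 at 120 tags for example.

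Height limits of 80 and 120 tags, the wider promoter window, starts of all transcripts, autosomes only and sequence that occurs once only changed the share outside H3K27Ac by less than its interval. That share was 68.3% when no H3K27Ac peak was allowed within 1000 bp and 82.6% against the 25000 tallest peaks of each H3K27Ac list. Those 2 settings gave a median gap to H3K27Ac of 17.1 and 34.5 kb. With the 25000 tallest peaks, 54.2% of outside peaks had a DHT peak and 52.7% a vehicle peak within 50 kb, and within 10 kb of the full lists the shares were 37.3% for DHT and 35.1% for vehicle. The set grew to 1590 peaks under the 25000 tallest peaks, which can only add to it.

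The motif window set the motif shares. Within 50 bp of the center, CTTTGAT was present in 12.8% and the loose TCF form in 30.7% of outside peaks, and anywhere in the peak in 35.2% and 74.3%. The forkhead difference was -12.4 points anywhere in the peak, while its interval included 0 at 120 tags (-1.76 points), with no H3K27Ac peak within 1000 bp (-2.63 points), within 50 bp (-1.98 points) and, chosen after seeing the data, for TGTTTAC only (-1.64 points). The interval of the CTTTGAT difference excluded 0 at 80 tags (4.84 points), with the wider promoter window (4.36 points) and with the 25000 tallest peaks (5.04 points), and the difference was 0.80 points at 120 tags and 1.41 points with no H3K27Ac peak within 1000 bp. Among distal peaks under 100 tags, an alternative chosen after seeing the data, the AP-1 difference was 9.83 points and the CTCF difference 0.833 points. Another TCF7L2 peak was near 63.3% of outside peaks of 80 tags or more, and near 57.3% within 5 kb and 88.2% within 50 kb. Genes with an outside peak numbered 1834 at 80 tags, 639 within 10 kb and 1938 within 100 kb.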

Other observations

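Of 8179 words of 7 bases, read on both strands, TGACTCA exceeded its side windows most in the central 200 bp of the outside peaks, by 36.4 points, and CTTTGAT came next, by 18.4 points. CTTTGAA was the sixth, present in 20.1% of outside peaks and 15.7% of inside peaks against 5.44% of the side windows of outside peaks. The sequence was not used to choose the peaks, and words that overlap one another share their sites.

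Outside peaks were spread unevenly over chromosomes, with 0.899 per Mb on chromosome 17, 0.680 on chromosome 12 and 0.135 on chromosome X, where there were 21. The whole TCF7L2 list was uneven too, with 1210, 1172 and 355 peaks on these chromosomes. Of their strong distal peaks, 65.8% (56.5 to 73.9), 78.4% (70.1 to 85.0) and 80.8% (62.1 to 91.5) were outside H3K27Ac. The uneven spread is therefore not read as a trait of outside peaks.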
